A study of Mus musculus with 12 samples.

Results

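DEAD-box and DEAH-box RNA helicases are the Ddx and Dhx genes, taken here as every gene symbol in the count table that starts with Ddx or Dhx and a digit, without 2 interferon-related sensors that the rule leaves out. The rule found 51 genes among 14323. It works by name, so RNA helicases with other symbols, among them the DEAD-box factor Eif4a1, are outside it. RNA was sequenced from naïve CD8+ T cells sorted as CD62L+CD44- from spleens of 3 wild type mice and cultured for 6 h at 100000 cells per well. The 4 groups of 3 libraries, 1 per mouse, were unstimulated with isotype, unstimulated with anti-LAIR-1, anti-CD3 with isotype and anti-CD3 with anti-LAIR-1. Anti-CD3 (clone 145-2C11) was immobilized at 2.5 µg/ml and triggers the T cell receptor complex. Anti-LAIR-1 (clone 2C7) is an agonistic antibody to an inhibitory collagen receptor. The labels give the unstimulated groups an isotype antibody in place of anti-CD3. All groups share this origin, and the study describes its wild type mice as adult C57BL/6N.

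These enzymes use ATP to unwind RNA or to remodel complexes of RNA and protein, and each is usually tied to a particular step: making ribosomes in the nucleolus, splicing, export from the nucleus, initiating translation, or RNA decay. A resting naïve T cell is small and makes little protein. After its receptor is triggered it grows before it divides, which requires new ribosomes.

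Library totals ranged from 1781218 to 7725545 counts and were lower without anti-CD3 (group medians of 2304214 and 3548881) than with it (4883760 and 6204054). Levels are given in CPM, counts scaled to library size and normalized by TMM over the 12 libraries. Genes are compared between conditions and not with each other, since reads came from 3′ ends. The 7 detected CD8 T cell markers summed to between 2094 and 5005 CPM in every library, while markers of B cells, CD4 T cells, NK cells, myeloid and erythroid cells summed to at most 10.1 CPM for any of these types. Markers of activation summed to 244 to 284 CPM without anti-CD3 and to 2193 to 2748 CPM with it, so that the stimulated libraries matched their labels.

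Anti-CD3 raised most of the helicase genes. Among isotype libraries 46 of the 51 had enough counts to be tested (edgeR quasi-likelihood test, Benjamini-Hochberg adjustment over all genes, threshold 0.05). Of these, 30 rose (65.2%), 7 fell and 9 did not pass. Over all 8690 genes tested, 35.3% rose and 36.1% fell, 71.3% together, which is the background to these counts. Their median log2 fold change was 0.78, against -0.03 for all genes tested. The same median was 0.85, 0.88 and 0.59 in the 3 mice taken singly. In the 6 anti-LAIR-1 libraries, which are different cultures of cells from the same mice, 30 of 47 rose (background 36.4%), 8 fell (background 36.3%, 72.7% together) and 9 did not pass. In isotype libraries the groups of 3 did not overlap for 31 of the 46 upwards (67.4%, background 37.7%) and for 8 downwards (17.4%, background 35.8%). In the anti-LAIR-1 libraries the median log2 fold change was 0.67, against -0.04 over all genes.

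Summed over the 51 genes, the helicases took 0.378% ± 0.0141 of all counts in unstimulated isotype libraries and 0.613% ± 0.0203 with anti-CD3 (SD, n = 3). Mitochondrial transcripts took 18.8% and 12.1% of counts in the same groups. With these left out, the helicase share was 0.465% and 0.698%. The median log2 fold change was again 0.78 when mitochondrial genes and Rn45s were left out before normalization. Such shares are relative to the RNA sequenced, and a change in total RNA per cell cannot be told apart from a change in the number of cells that gave RNA.

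**Figure D1:**
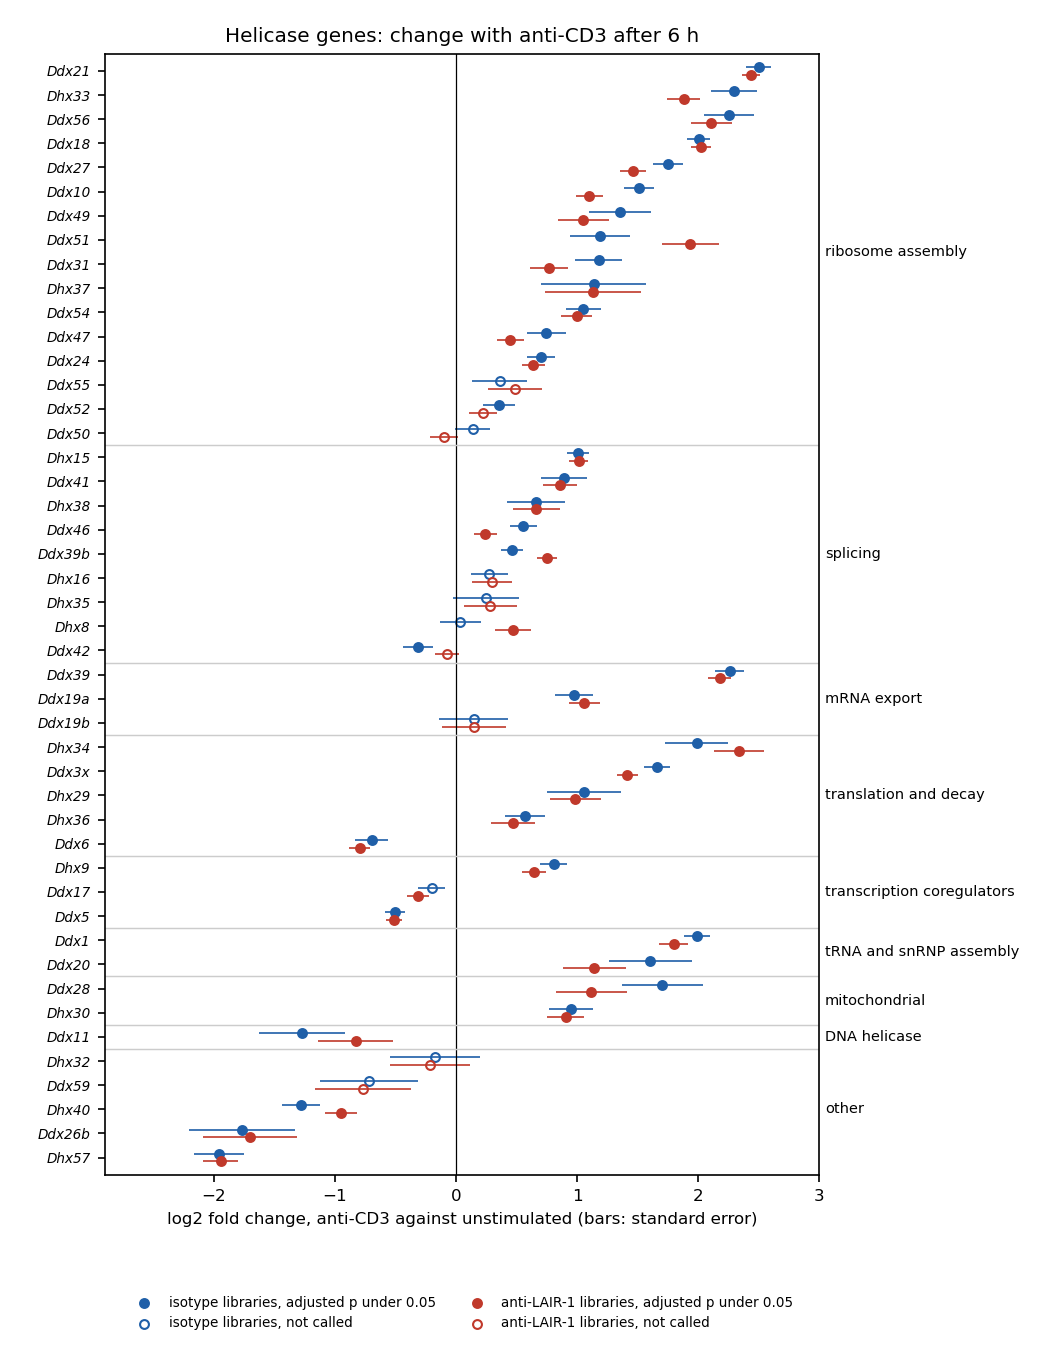
Log2 fold change with anti-CD3 against unstimulated cells for the 46 helicase genes tested in both comparisons, ordered by role, in isotype (blue) and anti-LAIR-1 (red) libraries (3 against 3 each). Bars are standard errors of the fit, filled points passed an adjusted p of 0.05, and almost all ribosome assembly genes lie to the right of 0.

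The 16 helicases of ribosome assembly were the group with the most members. In isotype libraries 14 of 16 rose (87.5%, background 35.3%), none fell, and the median log2 fold change was 1.19. With anti-LAIR-1, 13 rose (81.2%, background 36.4%) and none fell. Ddx21 is a nucleolar helicase that acts in ribosomal RNA transcription and processing, and it had the highest fold change of all helicases in isotype libraries. Its level was 196, 170.2 and 224 CPM in unstimulated isotype libraries and 1197, 1189 and 1029.5 CPM with anti-CD3. All stimulated libraries therefore lay far above all unstimulated ones. The log2 fold change was 2.50 ± 0.10 (SE, adjusted p = 6.2e-16), a 5.66-fold rise. Ddx50 is its closest relative and its neighbour on the same strand of chromosome 10, at chr10:62615895-62651218 against chr10:62580251-62602281 for Ddx21 (mm10, protein coding), with 13613 bases between them. Ddx50 was at 42.0, 53.9 and 59.3 CPM without and 60.5, 51.7 and 61.0 CPM with anti-CD3. These groups overlap, and its log2 fold change of 0.14 ± 0.14 did not pass (adjusted p = 0.39).

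The bases before the RefSeq start of these neighbours are printed because they belong to relatives that behaved differently. Those of Dhx33 are printed because, of the 28 risen members with a window, only it carried the E-box sequence CACGTG. This form of E-box reads the same on both strands and is bound by Myc and by other factors of that class. Other forms of E-box were not searched for. The motif is shown in capitals. Each run is 250 bases read 5′ to 3′ along the gene's strand and ending just before the start (GRCm38.p6, minus strand in all 3). The position is chr10:62602299-62602548 for Ddx21, chr10:62651219-62651468 for the upstream start of Ddx50 and chr11:71004433-71004682 for Dhx33.
Ddx21: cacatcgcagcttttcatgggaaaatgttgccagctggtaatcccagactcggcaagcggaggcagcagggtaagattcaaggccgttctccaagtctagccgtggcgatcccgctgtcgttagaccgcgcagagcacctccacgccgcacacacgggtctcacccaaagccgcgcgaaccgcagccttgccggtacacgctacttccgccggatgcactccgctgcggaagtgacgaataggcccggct
Ddx50: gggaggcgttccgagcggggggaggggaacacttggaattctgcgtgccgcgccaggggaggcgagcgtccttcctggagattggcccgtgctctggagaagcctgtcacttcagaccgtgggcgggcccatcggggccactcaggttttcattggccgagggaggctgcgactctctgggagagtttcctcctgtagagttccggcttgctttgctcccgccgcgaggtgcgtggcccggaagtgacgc
Dhx33: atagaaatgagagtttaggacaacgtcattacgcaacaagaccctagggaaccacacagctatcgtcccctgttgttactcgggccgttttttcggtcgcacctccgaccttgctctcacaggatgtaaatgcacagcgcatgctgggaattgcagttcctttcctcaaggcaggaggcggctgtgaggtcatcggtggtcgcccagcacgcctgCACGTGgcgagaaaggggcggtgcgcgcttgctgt
Neither Ddx21 nor Ddx50 has the motif in these bases, and in Dhx33 it begins 35 bases before the start. In windows of 250 bases before to 50 after the start, which 46 of the 51 genes have in the RefSeq table (Ddx6, Ddx11, Ddx23, Ddx39 and Dhx38 are not among them), CACGTG was present in 7 (15.2%). A gene was counted if the window of any of its RefSeq starts held the motif. It was present in 1 of 28 members that rose (3.57%), and in 3 of 5 that fell, Ddx5, Ddx42 and Dhx40. In Ddx5 and Ddx42 only some of the starts carried it, for Ddx42 the downstream one (window chr11:106230416-106230715). Over the 10468 genes of the count table with a window the share was 11.4%, and over all 27025 genes in the RefSeq table it was 8.09%. A match of letters is not a bound site, and no match says only that these letters are not in this window.

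The other strong risers of this group act mostly on the precursor of the large subunit. Dhx33, which promotes ribosomal RNA transcription, was at 15.2, 8.16 and 18.3 CPM without and 69.8, 71.4 and 65.9 CPM with anti-CD3 (log2 fold change 2.30 ± 0.19, adjusted p = 1.9e-10). Ddx56 went from 9.27, 8.16 and 16.2 to 51.1, 49.4 and 57.7 CPM (2.26 ± 0.20, adjusted p = 8.7e-10). In both genes even the lowest stimulated library was well above the highest unstimulated one. Ddx18 was at 136, 127 and 127 CPM without and 524, 522 and 561 CPM with anti-CD3 (2.01 ± 0.09, adjusted p = 6.0e-15). Ddx27 was at 31.8, 37.6 and 37.2 CPM without and 117, 128 and 120.5 CPM with anti-CD3 (1.75 ± 0.13, adjusted p = 1.7e-11). The spread between mice was small beside each of these differences. Among the rest, Ddx10, Ddx49, Ddx51, Ddx31, Dhx37 and Ddx54 rose by 1.05 to 1.51 on the log2 scale, and Ddx47, Ddx24 and Ddx52 by 0.36 to 0.75. Ddx52 and Dhx37 lost their calls under several of the other settings, Dhx37 with only 16 counts in the unstimulated isotype libraries together. With either antibody Dhx37 had enough counts to be tested only through its stimulated libraries. Its calls therefore add no support, though it is counted among the genes that rose. Ddx55 did not pass (0.36 ± 0.23, adjusted p = 0.16).

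Splicing helicases changed less than those of ribosome assembly. In isotype libraries 5 of 9 tested rose (55.6%, background 35.3%), 1 fell (11.1%, background 36.1%) and the median was 0.46. Dhx15, which takes spliceosomes apart and also serves in ribosome assembly, had the highest fold change of this group (1.01 ± 0.09), followed by Ddx41, Dhx38, Ddx46 and Ddx39b, of which Dhx38 lost its call under 5 of the other settings. Ddx42, an early spliceosome factor, was at 83.7, 101 and 91.1 CPM without and 79.8, 82.7 and 65.8 CPM with anti-CD3. The gap between these groups is narrow, and the fall (log2 fold change -0.31 ± 0.12, adjusted p = 0.029) was lost under 6 of the other settings and absent from the anti-LAIR-1 libraries (-0.07 ± 0.10, adjusted p = 0.50). The difference between these changes did not pass as an interaction term (0.21 ± 0.16, adjusted p = 0.66). Dhx8, Dhx16 and Dhx35 did not pass in isotype libraries. Ddx23, a helicase of the tri-snRNP, had only 33 counts over the 12 libraries and was not tested.

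Of the 3 mRNA export helicases 2 rose and none fell (66.7% called, against 71.3% of all genes). Ddx39 was at 53.6, 52.7 and 69.0 CPM without and 276, 261 and 315 CPM with anti-CD3, a log2 fold change of 2.26 ± 0.12 (adjusted p = 6.9e-14). Its paralogue Ddx39b, which acts both in splicing and in export, was at 285, 347 and 320.3 CPM without and 455, 453 and 437 CPM with anti-CD3 (0.46 ± 0.09, adjusted p = 9.6e-05). Both rose without overlap, Ddx39 by 4.80-fold and Ddx39b by 1.38-fold. Ddx19a, which releases mRNA at the nuclear pore, went from 22.5, 27.4 and 21.0 to 49.0, 49.2 and 45.8 CPM (0.98 ± 0.16, adjusted p = 8.1e-06). Ddx19b lies 5387 bases away on the same strand of chromosome 8, at chr8:111003188-111031751. It was at 9.60, 12.7 and 7.01 CPM without and 15.1, 9.75 and 9.65 CPM with anti-CD3, groups that overlap (0.15 ± 0.28, adjusted p = 0.66). Reads that map equally well to both genes were discarded by the authors, so that levels of so similar a pair are uncertain.

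Ratios within a library do not depend on its normalization. The log2 ratio of Ddx21 to Ddx50 counts (pseudocount 0.5) was 2.22, 1.66 and 1.91 in unstimulated isotype libraries and 4.30, 4.52 and 4.08 with anti-CD3. With anti-LAIR-1 the means were 1.74 ± 0.22 and 4.27 ± 0.03 (SD, n = 3). The ratio of Ddx39 to Ddx39b moved from -2.44 ± 0.26 to -0.66 ± 0.17 in isotype libraries and from -2.43 ± 0.19 to -1.0 ± 0.16 with anti-LAIR-1. That of Ddx19a to Ddx19b moved from 1.29 ± 0.23 to 2.08 ± 0.35 and from 1.57 ± 0.48 to 2.43 ± 0.27. In all of these the stimulated and unstimulated libraries did not overlap. The ratio of Ddx5 to Ddx17 moved from 3.19 ± 0.06 to 2.90 ± 0.14 without overlap in isotype libraries, and overlapped with anti-LAIR-1. Across 16 such comparisons, 4 pairs by 4 contrasts, the exact two-sided permutation p of those without overlap was 0.1, the smallest that 3 against 3 libraries allow, and 0.2 after Benjamini-Hochberg adjustment. Ddx3y, the Y-linked partner of Ddx3x, was not analysed here.

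**Figure D2:**
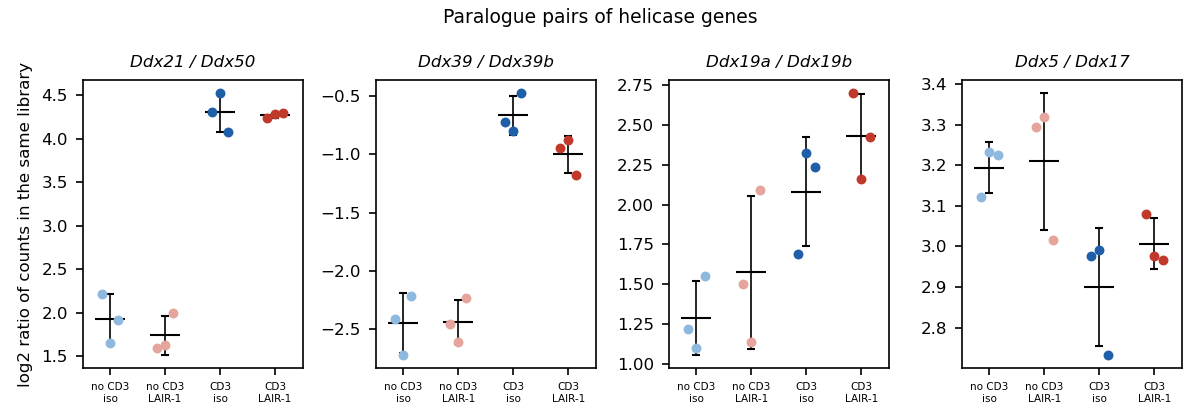
Log2 ratio of the counts of each paralogue pair within a library (points, 3 per group) with mean and SD (bars), in libraries without and with anti-CD3 and with isotype (iso) or anti-LAIR-1. For Ddx21 over Ddx50 all 6 stimulated libraries lie above 4 and all 6 unstimulated ones at or below 2.22; each panel has its own axis, which does not start at 0.

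All 5 helicases of translation and mRNA decay were called, 4 upwards, where 71.3% of all genes were called and 35.3% rose. Dhx34, which takes part in nonsense-mediated decay, was at 9.60, 3.67 and 7.55 CPM without and 26.6, 30.5 and 28.9 CPM with anti-CD3 (1.99 ± 0.26, adjusted p = 3.2e-07). Ddx3x, which helps ribosomes to load on structured 5′ leaders, went from 127, 126 and 129 to 376, 475 and 389 CPM (1.66 ± 0.10, adjusted p = 1.3e-12). Dhx29, needed for scanning, and Dhx36, which unwinds G-quadruplexes, rose by 1.06 and 0.57 on the log2 scale. Ddx6, which represses translation and promotes decapping, went the other way, from 146, 179.6 and 114 CPM to 81.3, 96.4 and 100.04 CPM. Its groups do not overlap (-0.70 ± 0.13, adjusted p = 7.0e-05), and it fell with anti-LAIR-1 as well (-0.80 ± 0.09, adjusted p = 1.2e-07).

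Ddx1, a part of the tRNA ligase complex, was at 60.9, 63.3 and 70.6 CPM without and 267, 253 and 269 CPM with anti-CD3 (1.99 ± 0.11, adjusted p = 7.7e-14). Ddx20, a part of the SMN complex that assembles spliceosomal snRNPs, also rose (1.61 ± 0.35, adjusted p = 0.00024), from a level of 3.37 ± 1.18 CPM (SD, n = 3). In isotype libraries Ddx20 had enough counts to be tested only through its stimulated libraries, so that call adds no support. Both helicases of the mitochondrial ribosome rose, Ddx28 by 1.71 ± 0.34 and Dhx30 by 0.95 ± 0.18, while the share of counts from mitochondrial transcripts was lower with anti-CD3. Dhx9, a helicase that binds transcription complexes and double-stranded RNA, rose by 0.81 ± 0.11.

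Ddx5, one of the members that fell, is a coregulator of transcription with roles in splicing and microRNA processing. It was at 1099, 1111 and 1163 CPM without and 803, 831 and 802 CPM with anti-CD3 (-0.50 ± 0.08, adjusted p = 5.0e-06). Its paralogue Ddx17 was at 126, 118 and 124 CPM without and 102, 104 and 121 CPM with anti-CD3, groups that overlap through a single library (-0.20 ± 0.11, adjusted p = 0.10). In the anti-LAIR-1 libraries Ddx17 fell (-0.31 ± 0.09, adjusted p = 0.0043). Dhx57, on chr17:80238309-80290476, had the lowest fold change among the helicases tested in isotype libraries. It was at 33.4, 35.1 and 36.1 CPM without and 7.56, 9.11 and 10.3 CPM with anti-CD3, a fall by 1.96 on the log2 scale (SE 0.20, adjusted p = 9.6e-09). Dhx40 was at 53.3, 51.0 and 71.7 CPM without and 26.3, 24.2 and 23.3 CPM with anti-CD3 (-1.28 ± 0.16, adjusted p = 1.6e-07). Neither gene's groups come near to touching.

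Ddx26b and Ddx11 are low genes. Ddx26b, which the GENCODE M21 annotation calls Ints6l after a subunit of the Integrator complex, was at 9.60, 7.35 and 3.24 CPM without and 1.21, 2.97 and 1.93 CPM with anti-CD3 (-1.77 ± 0.44, adjusted p = 0.00097), on 53 and 30 counts. Ddx11, a DNA helicase of sister chromatid cohesion, was at 7.94, 6.12 and 12.4 CPM without and 3.33, 3.60 and 3.86 CPM with anti-CD3 (-1.27 ± 0.36, adjusted p = 0.0028), on 62 and 52 counts. Their groups are separate but close. Both calls were lost in DESeq2 with the mouse as replicate block (adjusted p = 0.052 and 0.069). Ddx26b had enough counts to be tested only through its unstimulated libraries, with either antibody. Its calls therefore add no support, though it is counted among the genes that fell. Dhx32 and Ddx59 did not pass.

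**Figure D3:**
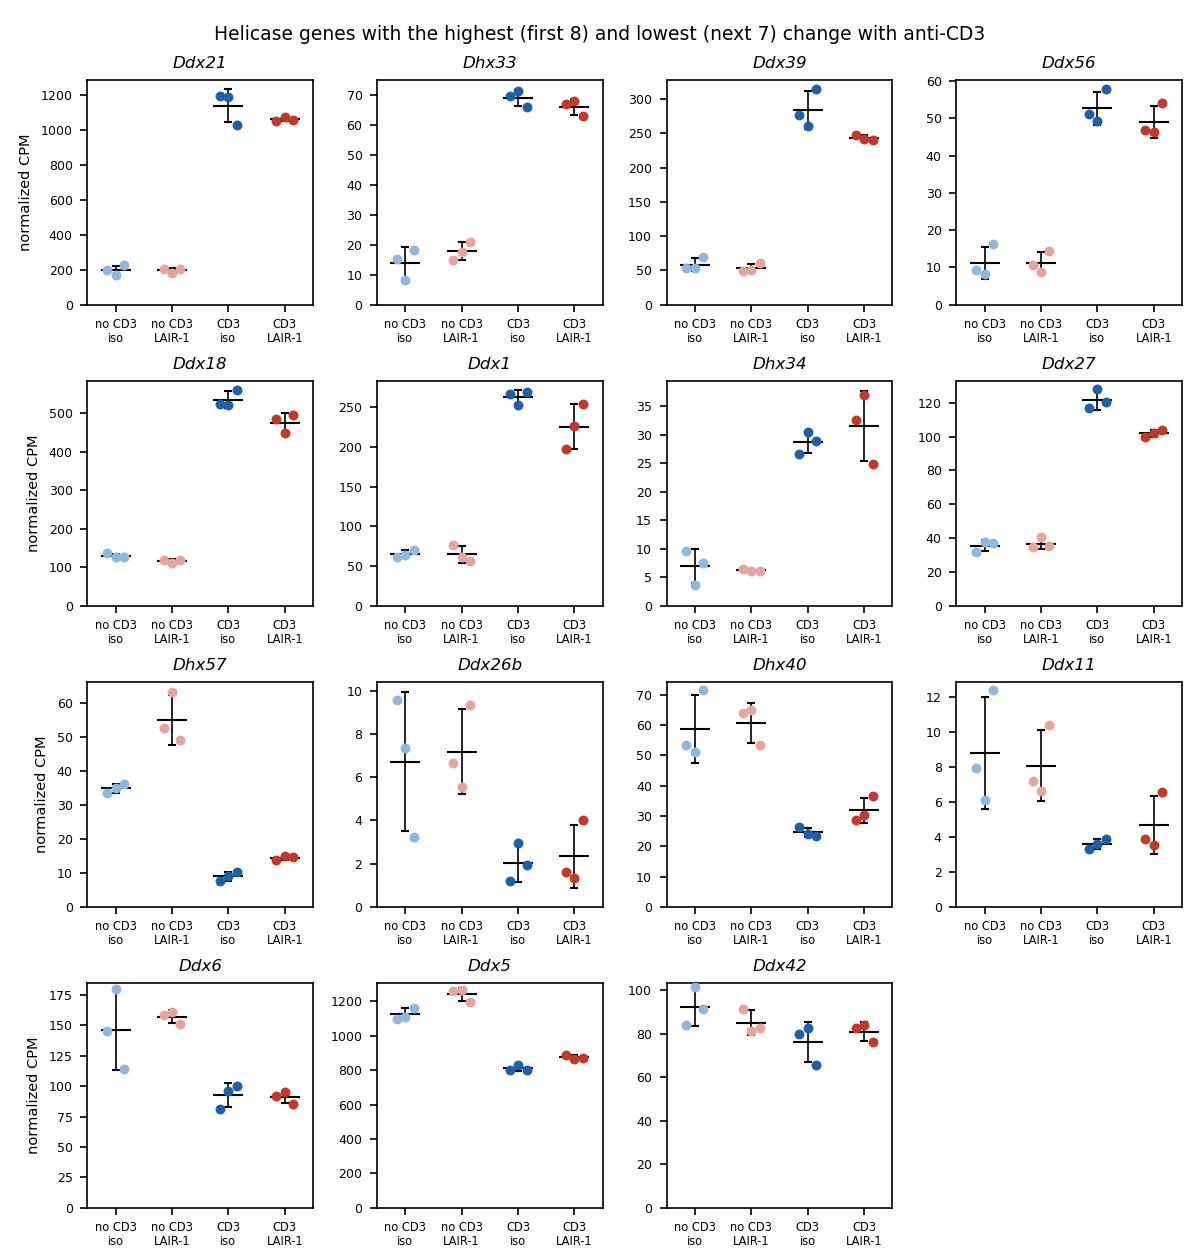
Normalized CPM in each of the 12 libraries (points) with mean and SD (bars) for the 8 helicase genes with the highest and the 7 with the lowest called fold change with anti-CD3 in isotype libraries. The 6 stimulated libraries lie above the 6 unstimulated ones in each of the first 8 panels, and the axes start at 0 and differ between panels.

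Ddx60, an interferon-induced helicase at chr8:61928087-62038244, was close to 0 with anti-CD3. It had 10, 10 and 5 counts in unstimulated isotype libraries and 0, 1 and 0 with anti-CD3, although the stimulated libraries were deeper. The ratio of counts per total was 53.0, with an exact 95% interval of 8.67 to 2174. With anti-LAIR-1 the counts were 13, 16 and 19 against 2, 1 and 0, a ratio of 28.2 (9.08 to 141). These intervals cover counting error only. In isotype libraries its counts were below the filter of the test. In the anti-LAIR-1 libraries it passed that filter only through its unstimulated counts. Its call there (lower, adjusted p = 1.8e-06) therefore adds no support, though it is 1 of the 8 counted as lower. The germline helicases Ddx4 and Ddx25 and the cancer-testis gene Ddx43 stayed at 13 counts or fewer in each library and were not tested in either anti-CD3 comparison.

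The calls were nearly the same genes with either antibody. Of the 30 that rose in isotype libraries 29 also rose with anti-LAIR-1 (96.7% of each list), with Ddx52 called only in the first and Dhx8 only in the second. Of those that fell, 6 were shared, 85.7% of the 7 in isotype and 75% of the 8 in anti-LAIR-1 libraries. Ddx42 was called only in the first, and Ddx17 and Ddx60 only in the second. Ddx60 was not tested in isotype libraries, so it could not have been shared. The matching overlap over all genes was not computed, so these percentages have no background. Much sharing could arise in any gene set, since 71.3% of all genes were called in isotype and 72.7% in anti-LAIR-1 libraries. The comparisons share mice but no libraries. Some sizes differed on paper, such as 1.19 ± 0.25 against 1.94 ± 0.24 for Ddx51, and the test of the difference itself is given below with the interaction.

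RNA helicases with other names and proteins that work with helicases were looked at beside them. Of 17 other RNA helicases tested 7 rose and 6 fell in isotype libraries (41.2% and 35.3%, near the background). The highest was Eif4a1, which unwinds mRNA leaders for translation (2.15 ± 0.09), followed by Supv3l1 (1.60 ± 0.19) and Skiv2l2 (1.24 ± 0.14), helicases of mitochondrial and of nuclear RNA decay. Among those that fell were Mov10 (-1.91 ± 0.36) and the interferon-induced Helz2 (-1.34 ± 0.18). Of 44 helicase cofactors 23 rose and 6 fell (52.3% and 13.6%, against 35.3% and 36.1% of all genes). The exon junction factor Magohb (2.95 ± 0.18), the G-patch protein Gpatch4 (2.42 ± 0.17) and Nkrf (1.87 ± 0.24) rose most. Pdcd4, which holds eIF4A inactive, fell most (-2.88 ± 0.13), with Gpatch2 (-1.01 ± 0.33) and Rbm5 (-0.97 ± 0.12) after it.

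Among stimulated cells, anti-LAIR-1 moved the helicases little. None of 47 passed in edgeR, against 3.9% of 8800 genes higher and 1.86% lower (5.76% together). DESeq2 called 1. At an unadjusted p under 0.05 there were 10 of 47 (21.3%), against 18.8% of all genes. The differences ran from -1.15, for Ddx43 on 36 counts with isotype and 21 with anti-LAIR-1, to 0.65. Most were small and negative: 35 of 47 were below 0, against 4345 of 8800 over all genes. Their median was -0.10, against 0.00 over all genes. It was -0.06, -0.11 and -0.09 in the 3 mice. Groups did not overlap for 9 genes that were lower (19.1%, background 11.1%) and for 3 that were higher (6.38%, background 12.9%). Ddx43 is 1 of these 9 and 1 of the 10 with an unadjusted p under 0.05. It had enough counts to be tested only through the isotype libraries, where it was higher, so it adds no support. The 6 activation markers had a median of -0.09 in the same comparison, and 1 of them was called lower.

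All 16 helicases of ribosome assembly had a negative difference, from -0.28 to -0.06, with a median of -0.13. Not all of these signs held. Over the other settings Dhx37 ranged from -0.31 to 0.17, Ddx51 from -0.29 to 0.016 and Ddx55 from -0.36 to 0.0034. Several of the 16, such as Ddx24 and Ddx54, were above 0 in a single mouse. None of the 16 passed alone. Ddx27 was the nearest, at 117, 128 and 120.5 CPM with isotype and 99.5, 102 and 104 CPM with anti-LAIR-1 (-0.27 ± 0.08, adjusted p = 0.064). Ddx39 was at 276, 261 and 315 CPM with isotype and 247, 242 and 241 CPM with anti-LAIR-1 (-0.23 ± 0.08, adjusted p = 0.089). In both genes all isotype libraries lay above all anti-LAIR-1 ones. The ratio of Ddx39 to Ddx39b differed by -0.34 on the log2 scale with anti-LAIR-1, also without overlap (exact permutation p = 0.1, adjusted 0.2). For Ddx21, by contrast, the difference was -0.11 ± 0.07 and the groups overlapped.

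Ddx3x and Dhx57 came closest to the threshold. Ddx3x was at 376, 475 and 389 CPM with isotype and 352, 329.7 and 344 CPM with anti-LAIR-1. The groups do not overlap, and the log2 fold change was -0.28 ± 0.08 (adjusted p = 0.056, and 0.0074 to 0.25 over the other settings). Without the highest isotype library, from mouse 2, it was -0.17. Dhx57 went the other way, at 7.56, 9.11 and 10.3 CPM with isotype and 13.8, 14.9 and 14.6 CPM with anti-LAIR-1 (0.65 ± 0.19, adjusted p = 0.057, and 0.014 to 0.43 over the other settings). Its groups do not overlap either. No helicase cofactor was called in this comparison by edgeR, and 7 of 44 had an unadjusted p under 0.05. The cofactors leaned the same way as the helicases, with 30 of 44 below 0 and a median of -0.08. Of the 18 other RNA helicases 9 were below 0, with a median of 0.002. Dhx40 did not pass (0.36 ± 0.14, adjusted p = 0.16), although its groups did not overlap.

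Without anti-CD3 no helicase passed, as no gene did among 8770 (0%). Unadjusted p-values under 0.05 were found for 2 of 46 (4.35%), against 4.38% of all genes, and DESeq2 called none. The median was 0.00. Groups did not overlap for 4 helicases that were higher (8.7%, background 4.8%) and 2 that were lower (4.35%, background 4.86%). The 2 genes with an unadjusted p under 0.05 were Dhx57 and Ddx51. Dhx57 was at 33.4, 35.1 and 36.1 CPM with isotype and 52.7, 63.4 and 49.3 CPM with anti-LAIR-1, a log2 fold change of 0.66 ± 0.15 (unadjusted p = 0.00023, adjusted p = 0.997). This is close to its 0.65 in stimulated cells, from libraries that the other comparison does not use, and it fell with anti-CD3 by 1.94 with anti-LAIR-1 and by 1.96 with isotype. Ddx51 was at 6.95, 6.94 and 9.17 CPM with isotype and 3.60, 5.04 and 4.55 CPM with anti-LAIR-1 (-0.78 ± 0.36, adjusted p = 0.997).

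**Figure D4:**
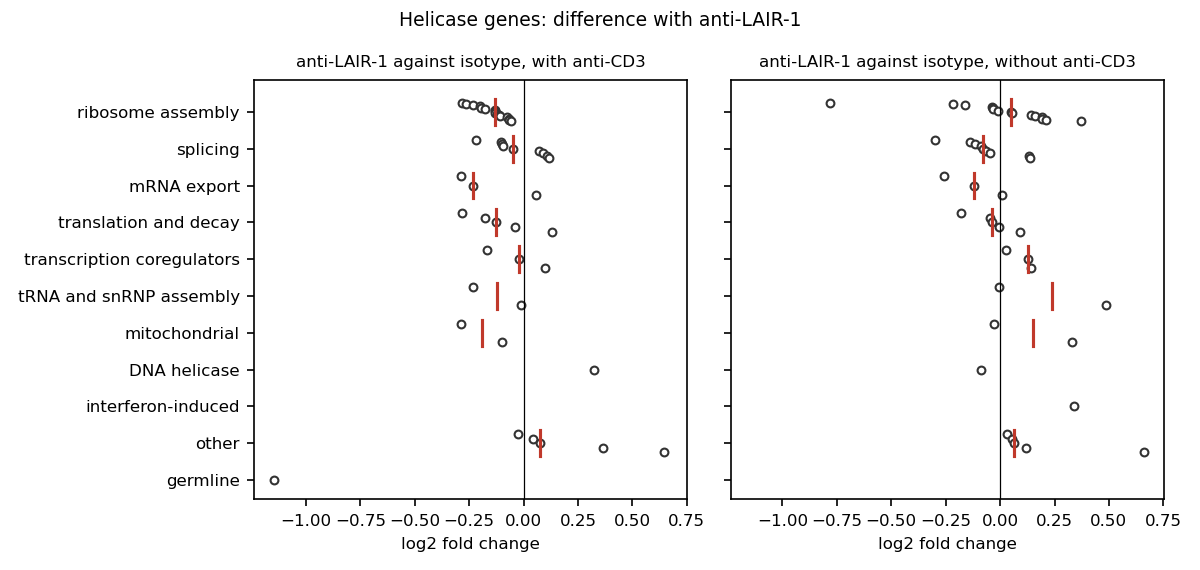
Log2 fold change of anti-LAIR-1 against isotype for each helicase gene tested (circles), by role, in stimulated (left) and unstimulated (right) cells; red lines are medians of groups with more than 1 gene. All 16 ribosome assembly genes lie below 0 with anti-CD3, and the 15 tested without it lie on both sides of 0, and no gene passed an adjusted p of 0.05.

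Whether anti-LAIR-1 altered the response to anti-CD3 was tested with the interaction term over all 12 libraries. No helicase of 48 passed, against 2.07% of 9223 genes (1.82% higher and 0.249% lower), and DESeq2 called none. Unadjusted p-values under 0.05 were found for 4 of 48 (8.33%), against 12.2% of all genes. These were Ddx10 (-0.44 ± 0.18), Ddx46 (-0.34 ± 0.14), Ddx51 (0.71 ± 0.34) and Ddx39b (0.26 ± 0.13), and the lowest adjusted p was 0.26, for Ddx10. That none passed does not show that the responses were alike.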

How the data were processed

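The authors deposited a table of read counts for each gene symbol, made by CEL-seq on a NextSeq 500, aligning to the mm10 transcriptome with BWA MEM, discarding reads that map equally well to several places and counting the rest with MapAndGo. They are not normalized, and whether molecular identifiers were collapsed is not given in the sources used here. Strand use in counting is not stated either, so that antisense or overlapping transcripts may share counts.

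Groups were compared with edgeR 4.0.16 in R 4.3.3: TMM normalization, filterByExpr, the quasi-likelihood F-test, and p-values adjusted by Benjamini-Hochberg across every gene tested, with a threshold of 0.05. Comparisons of 2 groups used their 6 libraries and the interaction used 12. The standard error is the log2 fold change divided by the root of F. DESeq2 (here version 1.42.0), the tool of the study, was an alternative. Scripts were tested on simulated data. P-values measure the spread between the 3 libraries of a group, in which mouse, culture and library preparation cannot be told apart.

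The pairing comes from the methods and labels, which give each mouse a library in every group. Deviations from group means correlated across genes with an average r of 0.0432 within a mouse and -0.0216 between mice. Fits with the mouse as replicate block are alternatives.

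Gene coordinates come from GENCODE M21 (GRCm38, which is mm10) and promoter sequence from RefSeq (GRCm38.p6). The members, roles and lists were chosen with earlier results of these data known. Values per library are given for up to 8 highest and 8 lowest called helicases with anti-CD3 in isotype libraries, any called for anti-LAIR-1 or the interaction, 4 paralogue pairs and Ddx3x. Other lists give at most 3 called genes in each direction, and 1 gene that this would name is not reported here. Library values of Ddx51 and Ddx60 fall outside that rule and were chosen after they were seen. The other settings were other scalings, filters, tools, a thinned depth, all 12 libraries in the fit, no mitochondrial genes or Rn45s, and each library left out.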

Additional observations from a re-analysis of the deposited data

How the results depend on the processing

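With anti-CD3, the count of helicases called stayed within 1.5 times its reported value under every setting run. It ranged from 26 to 30 higher and from 5 to 8 lower in isotype libraries, and 31 of the 37 calls passed under every setting that tested the gene. In anti-LAIR-1 libraries it was 25 to 33 higher and 6 to 11 lower, with 30 of 38 calls passing throughout. With the mouse as replicate block, edgeR called the same numbers, 30 and 7 and 30 and 8, and DESeq2 called 27 and 5 and 25 and 6. Upper quartile scaling moved the median of all genes to -0.20 and -0.24 and that of the helicases to 0.60 and 0.46.

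For anti-LAIR-1 with anti-CD3, where none was called, 1 helicase was higher (Dhx57) with no filter, with all 12 libraries and with thinned libraries. In DESeq2, with its size factors in edgeR, with no filter and without mitochondrial genes and Rn45s, 1 was lower (Ddx3x). Leaving out a library gave 0 to 1 lower, and the 1 was Ddx3x without isotype mouse 1 or 3 and Ddx1 without anti-LAIR-1 mouse 3. Over all genes, the 507 calls were 224 in DESeq2 with the block, 321 after thinning and 293 to 427 with a library left out, and the 191 calls of the interaction were 127 after thinning and 103 to 186. No block fit called a helicase for anti-LAIR-1 or the interaction. The cause of these shifts was not tested.

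For anti-CD3 against unstimulated cells, differences near 0 changed sign, none of them called. With isotype, upper quartile scaling gave -0.028 for Ddx19b, -0.036 for Ddx50 and -0.14 for Dhx8, thinning gave -0.037 for Dhx35 and -0.068 for Dhx8, and a minimum of 10 counts gave -0.018 for Dhx8. With a library left out, Ddx19b ranged from -0.038 to 0.35, Ddx50 from -0.0031 to 0.24 and Dhx8 from -0.061 to 0.13. With anti-LAIR-1, Ddx19b was -0.055 with upper quartile scaling and -0.19 thinned, and Ddx42 was 0.018 with no filter. With a library left out there, Ddx19b ranged from -0.059 to 0.46, Ddx50 from -0.19 to 0.014 and Dhx32 from -0.46 to 0.037. Depth limits Ddx4, Ddx23, Ddx25, Ddx43 and Ddx60, which held few counts.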
